A study of Mus musculus with 78 samples.

Results

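Livers of 6 male B6C3F1 mice that drank 3.5 g/L dichloroacetic acid (DCA) for 32 weeks (S2-32, mice 37 to 42) were compared with livers of 6 males of the same age that drank deionized water alone (Control-32, mice 73 to 78). These 12 libraries, of 78 in the series, were chosen by their treatment labels and by their presence among the 68 libraries of the normalized table, and each came from 1 mouse. DCA was given from 4 weeks of age, and the tissue was archival, formalin-fixed and paraffin-embedded. TempO-Seq, an assay that joins pairs of short probes on their target RNA and counts the joined pairs, was read for a targeted panel of 2755 genes, so most of the transcriptome was not measured. Levels (CPM) are counts divided by an effective library size, the total count times a scaling factor fitted by TMM, and are compared between mice only, since probes differ in efficiency. These factors were 1.03 to 1.24 in S2-32 and 0.534 to 1.05 in Control-32, so each level below rests on them. S1-32 mice (n = 6) drank DCA for 10 weeks and then water for 22 weeks, and were collected at the same age as S2-32. Mice given DCA for 10 weeks (S1-10, n = 6) or 57 weeks (S3-57, n = 5) were each set against their own water controls of that age (Control-10, n = 4, and Control-57, n = 6).

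DCA inhibits pyruvate dehydrogenase kinases, enzymes that switch off the pyruvate dehydrogenase complex. When the kinases are inhibited, more pyruvate can enter mitochondria as acetyl-CoA and feed the tricarboxylic acid (TCA) cycle. DCA is itself broken down by the zeta-class glutathione transferase, and long exposure causes liver tumors in this mouse strain. Hepatocytes make most liver RNA, including that of albumin, complement proteins and, in male mice, the major urinary proteins. The 9 hepatocyte markers on the panel summed to between 101208 and 152282 CPM in S2-32 (median 125213) and between 52283 and 116034 CPM in Control-32 (median 82781), and the probe for FABP1, a fatty acid carrier, gave the most counts. All 12 libraries thus carried hepatocyte RNA, as their tissue label, liver, implies.

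The 12 libraries were not equally alike. Total counts were 1484484 to 3049702 in S2-32 (median 2426390) and 721372 to 2731045 in Control-32 (median 1987260), and the mean log2 totals differed by 0.306 (exact permutation test, 2-sided, p = 0.4004). With a library left out that difference ran from 0.046, without Control-32 mouse 73, to 0.430, without Control-32 mouse 77. The number of genes with at least 1 count was 2188 to 2518 in S2-32 (median 2312) and 1590 to 2690 in Control-32 (median 2402.5; exact permutation test, 2-sided, p = 0.922), with both the fewest counts and the fewest genes in Control-32 mouse 73. The squared Spearman correlation of counts between libraries had a median of 0.912 within S2-32 but 0.716 within Control-32, so the water group was the more varied. Control-32 mouse 75 was least like its group (median 0.595), Control-32 mouse 74 had a median of 0.701 with its own group and 0.918 with S2-32, and S2-32 mouse 41 had a median of 0.754 with its group.

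MUP8, a major urinary protein gene whose paralogs are near-identical so that its counts may include theirs, also differed between the libraries. It held 2.12% to 17.4% of all counts in S2-32 (median 4.17%) and 9.06% to 44.02% in Control-32 (median 32.0%). The share was 41.6% to 44.02% in Control-32 mice 75, 76 and 78, 21.5% and 22.4% in mice 77 and 73, and 9.06% in mouse 74, while the highest S2-32 value, 17.4%, was that of mouse 41. MUP8 shares in the water controls of other ages were 0.0388% to 15.998% at 10 weeks, 2.76% to 22.6% at 57 weeks and 8.79% to 35.3% at 78 weeks. The lowest was that of Control-10 mouse 68, which also had a median squared correlation of 0.618 with its group, against 0.911 to 0.924 for the other 3 mice kept. The part of this spread in the results below was not tested, and counts of changed genes are given with and without single libraries for that reason.

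**Figure D1:**
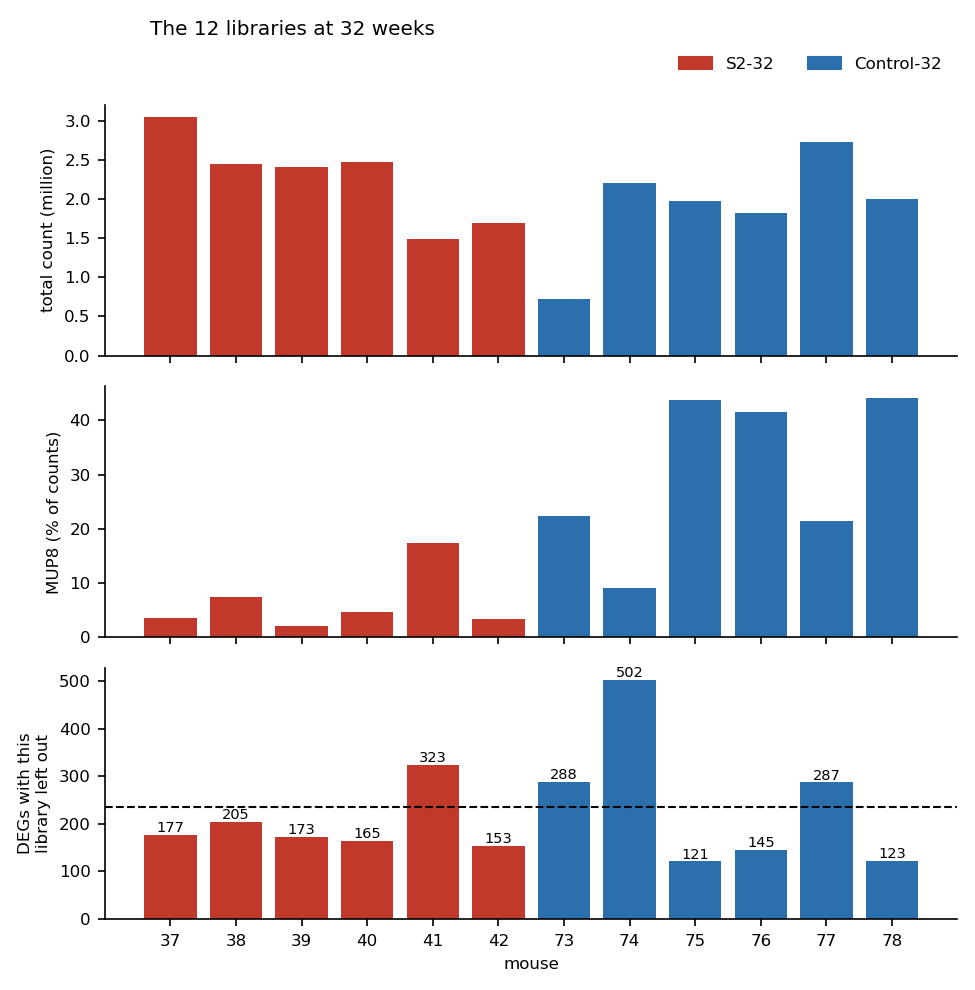
Total count (top), percent of counts held by MUP8 (middle) and number of differentially expressed genes (DEGs) when that library was left out (bottom) for each mouse of S2-32 (red) and Control-32 (blue). The dashed line marks the 235 DEGs found with all 12 libraries, and the count ran from 121 without Control-32 mouse 75 to 502 without Control-32 mouse 74.

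Among 2205 genes tested, 235 (10.7%) were DEGs between S2-32 and Control-32, called where the adjusted p was at most 0.05 and expression differed by more than 1.5-fold. Of these, 76 (3.45% of genes tested) were higher in S2-32, with a median log2 fold change of 1.39, and 159 (7.21%) were lower, with a median of -1.67; over all genes the median was 0.05. All 6 S2-32 mice lay above all 6 controls for 31 genes (1.41%) and below them for 29 (1.32%), and 46 of these 60 genes were DEGs. A mean under 10 CPM over both groups was found for 16 DEGs, 15 of them lower. The smallest adjusted p, 6.77e-05, belonged to RRM1, the large subunit of the ribonucleotide reductase that makes DNA building blocks. When each of the 12 libraries was left out in turn, 94 DEGs, 26 higher and 68 lower, were called every time, and genes described below are among these 94 unless the text says otherwise. Other settings ended some calls that single libraries did not. With all 78 libraries 4 of the 76 rises remained, and the calls of IDH3A, IDH3G, COL4A2, NR1I2, SMC3, TUBA4A, PSMD4 and SERPINF1 were lost, while with only S2-32 and Control-32 in the fit those of IDH3G, SMC3, PSMD4 and C9 were lost.

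The total count of DEGs was less steady than these genes. It fell to 121, 145 or 123 without Control-32 mouse 75, 76 or 78, and to 153 without S2-32 mouse 42, and it rose to 502 without Control-32 mouse 74, with all 235 DEGs among the 502. Control-32 mouse 74 lay inside the range of S2-32 at 158 of the 235 DEGs, against 9 to 13 for Control-32 mice 75, 76 and 78, 47 for mouse 77 and 61 for mouse 73. With mice 75, 76 and 78 all left out, a setting chosen after the values were seen and by a gene that is itself among the DEGs, 3 controls remained and edgeR called 0 genes (167 at an unadjusted p under 0.05) and DESeq2 called 2. With mice 74 and 75, the controls least like their group, left out, 343 DEGs were called, 212 of them among the 235.

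**Figure D2:**
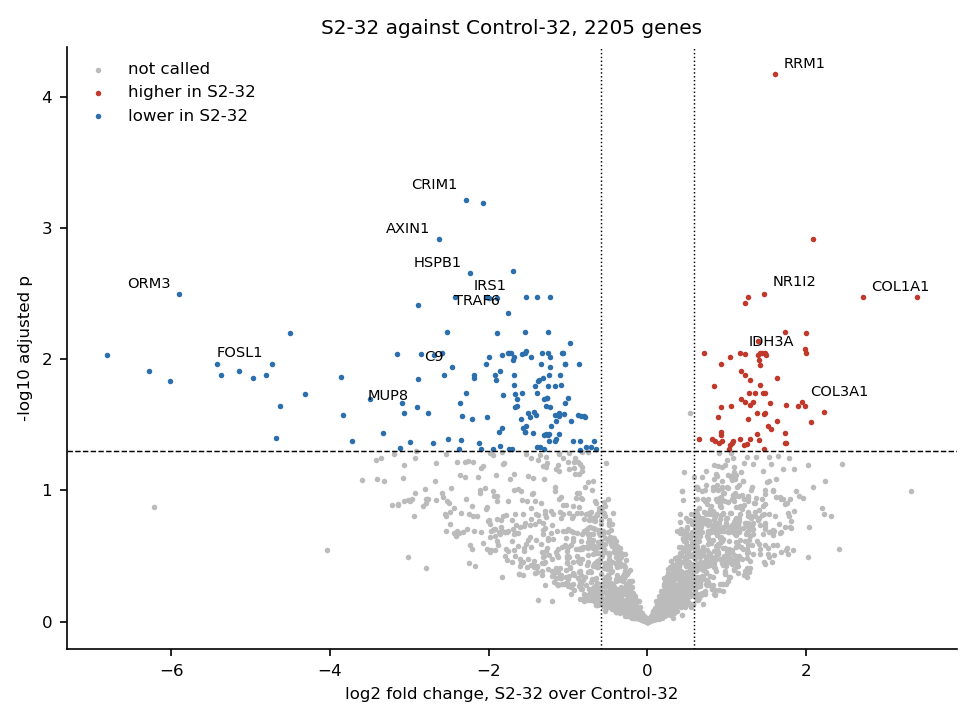
Log2 fold change of S2-32 over Control-32 (x) against -log10 of the adjusted p (y) for 2205 genes, each a point, with DEGs in red (higher in S2-32) and blue (lower) and the dashed and dotted lines at the thresholds. Of the DEGs, 159 lie on the left and 76 on the right, with RRM1 at the top.

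Of 7 genes tested of the TCA cycle, the mitochondrial route that oxidizes acetyl-CoA, 4 were higher in DCA-treated liver, against 3.45% of all genes, 0 were lower and 3 were not called, and the median log2 fold change was 0.93 against 0.05 over all genes. IDH3A, the catalytic subunit of the NAD-dependent isocitrate dehydrogenase, was at 237 to 359 CPM in S2-32 (median 268) and 74.5 to 184 CPM in Control-32 (median 125; log2 fold change 1.17 ± 0.29 (SE, n = 6 in each group), adjusted p = 0.00890). IDH3G, a regulatory subunit of the same enzyme, was at 933 to 1166 CPM against 157 to 799 CPM (log2 fold change 0.93 ± 0.24, adjusted p = 0.0108). For both subunits every treated mouse lay above every control. CS, citrate synthase, which starts the cycle, had a log2 fold change of 0.93 ± 0.30 (adjusted p = 0.0356), but its call was lost in 7 of 12 refits with a library left out, where the adjusted p reached 0.103 without Control-32 mouse 75.

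Genes for the proteins on which DCA acts or that dispose of it were examined next. The kinases themselves were not analysed here, and of 5 genes of pyruvate entry and DCA clearance tested 0 were higher and 1 lower, against 3.45% and 7.21% of all genes, with a median log2 fold change of 0.37. PDHX, which holds the complex's dihydrolipoamide dehydrogenase in place, was at 149 to 201 CPM in S2-32 (median 186) and 135 to 609 CPM in Control-32 (median 321; log2 fold change -0.85 ± 0.29, adjusted p = 0.0489), and its call held in only 3 of 12 refits, with an adjusted p of 0.149 without Control-32 mouse 73. GSTZ1, the transferase that clears DCA, was at 2656 to 3944 CPM in S2-32 (median 3478) and 2231 to 8746 CPM in Control-32 (median 5237; adjusted p = 0.212). PDHA1, DLD and MPC2, which encode parts of the complex and of the pyruvate carrier, had log2 fold changes of 0.37 ± 0.499, 1.67 ± 0.70 and 1.06 ± 0.41 and were not called (adjusted p = 0.635, 0.112 and 0.0792). Other settings called 2 of them higher. DLD was called with DESeq2 and without Control-32 mouse 74 (adjusted p = 0.00327). MPC2 was called with RLE factors, DESeq2 or detected genes as covariate, and without Control-32 mouse 73 or 74. In the respiratory chain, which takes the electrons the cycle releases, 2 of 18 genes tested were lower, against 7.21% of all genes, 0 were higher, against 3.45%, and 16 were not called, with a median log2 fold change of -0.35. NDUFA1, a complex I subunit, was at 1663 to 4223 CPM in S2-32 (median 2168) and at 1964 to 14419 CPM in Control-32 (median 8547; log2 fold change -1.76 ± 0.44, adjusted p = 0.00890). The list of 18 chain genes leaves out the mitochondrial gene CYTB, which was picked with its values already known. CYTB was higher, with medians of 1049 CPM in S2-32 and 157 CPM in Control-32. Its log2 fold change was 2.22 ± 0.67 (adjusted p = 0.0253). The call was lost without S2-32 mouse 37 or Control-32 mouse 75, 76 or 78 (adjusted p up to 0.0751). It was also lost with log2 total count as a covariate (adjusted p = 0.0777) and with all 78 libraries (0.0837).

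**Figure D3:**
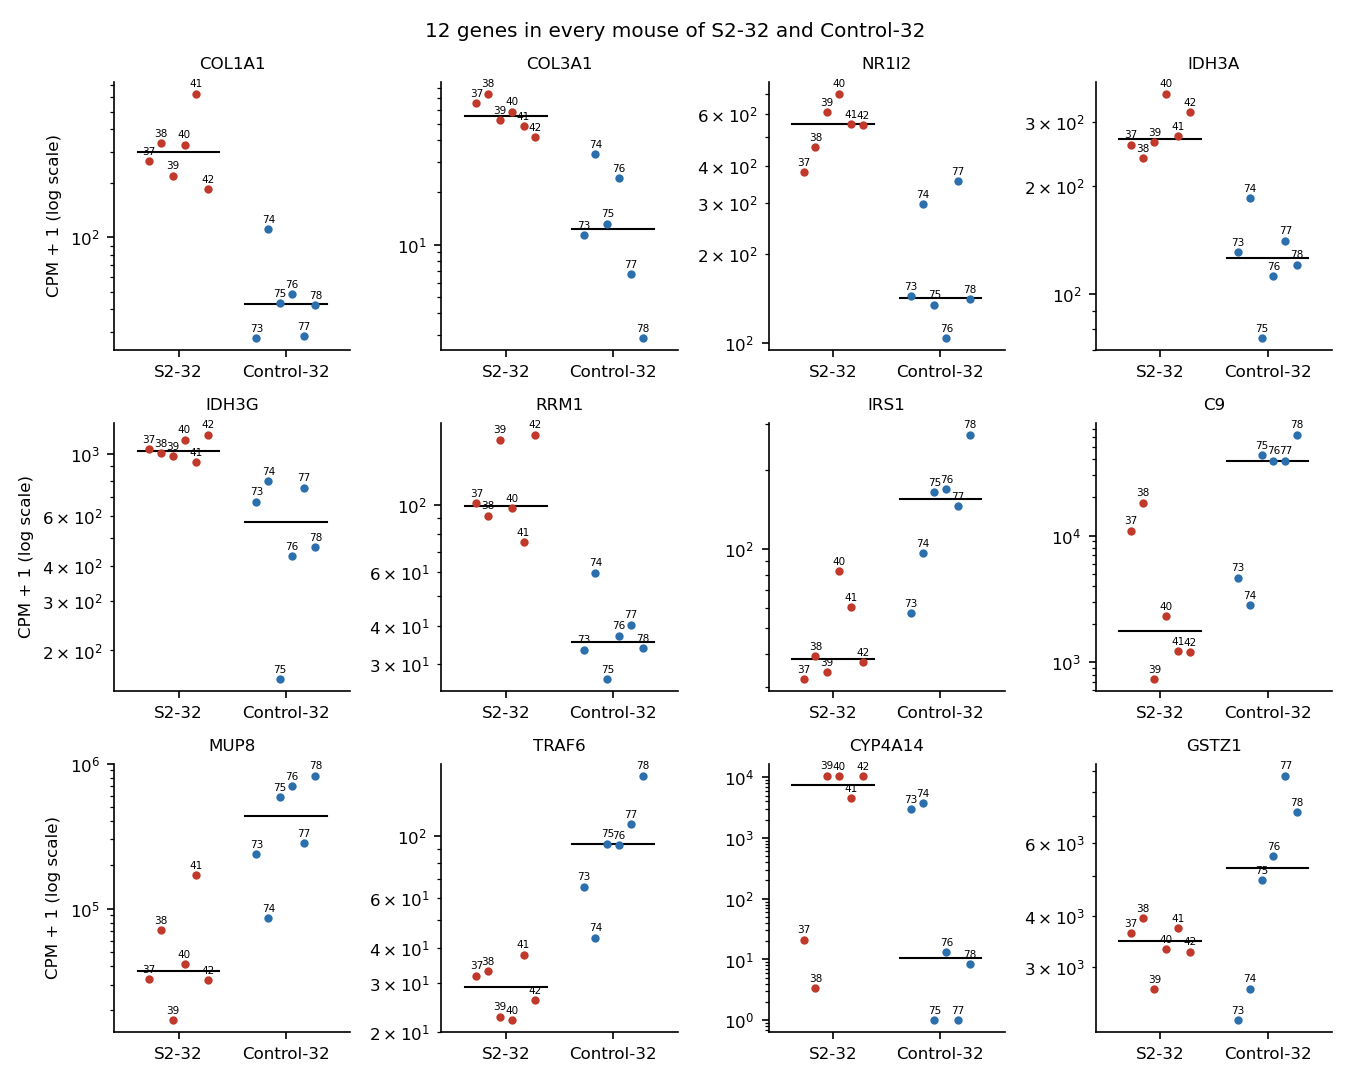
CPM + 1 on a log scale for 12 genes in each mouse (number beside each point) of S2-32 (red) and Control-32 (blue), with a line at the group median. For COL1A1, COL3A1, NR1I2, IDH3A, IDH3G, RRM1 and TRAF6 the groups do not overlap, while CYP4A14 splits each group, with S2-32 mice 37 and 38 at 20.2 and 2.33 CPM and Control-32 mice 73 and 74 at 3023 and 3736 CPM.

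Of 26 collagen and other matrix genes tested, 3 were higher in S2-32, against 3.45% of all genes, 0 were lower, against 7.21%, and 23 were not called, with a median log2 fold change of 0.54. COL1A1, a chain of the main fibrillar collagen of scar tissue, was at 185 to 628 CPM in S2-32 (median 296) and at 26.5 to 111 CPM in Control-32 (median 41.6), a log2 fold change of 2.72 ± 0.59 (adjusted p = 0.00335). All treated mice lay above all controls, the highest being S2-32 mouse 41 and the highest control mouse 74. COL3A1, the fibrillar collagen found beside it, was at 40.8 to 73.5 CPM against 1.87 to 32.4 CPM (log2 fold change 1.95 ± 0.57, adjusted p = 0.0212), again without overlap, though its call was lost without Control-32 mouse 78 (adjusted p = 0.0751) and with all 78 libraries (0.104). COL4A2, a basement membrane chain, was at 116 to 272 CPM in S2-32 (median 162) and 32.8 to 123 CPM in Control-32 (median 53.5; log2 fold change 1.498 ± 0.383, adjusted p = 0.00927, or 0.0642 with all 78 libraries). Its partner COL4A1 had medians of 38.8 and 13.7 CPM and a log2 fold change of 1.36 ± 0.62 that was not called (adjusted p = 0.146).

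The 9 stellate cell and fibroblast markers on the panel, of which the collagens COL1A1 and COL3A1 were the 2 called higher and none was lower, summed to 436 to 1148 CPM in S2-32 (median 646) and 143 to 364 CPM in Control-32 (median 257). The COL1A1 probe gave the most counts, with means of 326 CPM in S2-32 and 49.2 CPM in Control-32, so the sums partly restate its rise. No marker was at 0 in all 12 libraries. In bulk tissue, more cells of a type and more RNA per cell cannot be told apart. CD68, a macrophage protein, was at 20.4 to 32.2 CPM in S2-32 (median 24.4) and 0 to 12.9 CPM in Control-32 (median 5.05; log2 fold change 2.06 ± 0.65, adjusted p = 0.0301), but it was the only 1 of 6 macrophage markers called, and its call was lost in 5 of 12 refits (adjusted p up to 0.0948 without Control-32 mouse 78). The macrophage markers together summed to medians of 790 CPM in S2-32 and 703 CPM in Control-32. TYROBP and NRROS, myeloid genes that this list leaves out, were lower (log2 fold changes -2.58 and -1.64), in 12 and 8 of 12 refits.

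COL4A1 and COL4A2 encode chains that are assembled together and lie head to head in the genome, so their promoter windows are shown side by side. The windows, from 250 bases before to 50 after each RefSeq start in GRCm38.p6, overlap by 78 bases, printed in capitals on each gene's own strand, 5′ to 3′. COL4A1 is on the minus strand at chr8:11312777-11313076 and COL4A2 on the plus strand at chr8:11312555-11312854.
COL4A1: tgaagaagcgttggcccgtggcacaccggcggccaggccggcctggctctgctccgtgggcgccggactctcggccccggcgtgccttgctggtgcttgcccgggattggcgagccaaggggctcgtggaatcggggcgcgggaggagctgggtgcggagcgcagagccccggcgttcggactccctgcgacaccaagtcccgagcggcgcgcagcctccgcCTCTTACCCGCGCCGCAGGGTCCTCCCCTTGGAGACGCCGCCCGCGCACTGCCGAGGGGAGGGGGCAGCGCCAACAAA
COL4A2: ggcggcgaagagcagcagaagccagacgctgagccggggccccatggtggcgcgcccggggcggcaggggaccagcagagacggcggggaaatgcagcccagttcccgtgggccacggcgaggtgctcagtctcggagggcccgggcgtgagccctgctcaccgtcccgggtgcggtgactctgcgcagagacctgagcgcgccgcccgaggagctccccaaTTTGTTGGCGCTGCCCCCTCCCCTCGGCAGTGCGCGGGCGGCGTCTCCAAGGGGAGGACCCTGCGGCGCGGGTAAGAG
The capitals of the COL4A2 window are the reverse complement of those of the COL4A1 window, and the log2 fold changes above, 1.36 and 1.498, are those of the RNAs read from each side.

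Of 15 genes of cholesterol synthesis and its control, 2 were higher, 1 was lower and 12 were not called, against 3.45% and 7.21% of all genes higher and lower, and the median log2 fold change was 0.65. INSIG1, which holds the sterol sensor in the endoplasmic reticulum when sterols are plentiful, had medians of 649 and 259 CPM (log2 fold change 1.23 ± 0.36, adjusted p = 0.0212) and was higher than the control median in 5 of 6 treated mice, the exception being mouse 41. The INSIG1 call was lost without S2-32 mouse 39 or Control-32 mouse 76 (adjusted p = 0.0590 and 0.0657). EBP, a sterol isomerase late in cholesterol synthesis, was lower, at 41.3 to 108 CPM in S2-32 (median 71.3) and 33.9 to 647 CPM in Control-32 (median 260; log2 fold change -2.00 ± 0.52, adjusted p = 0.00970).

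The promoters of INSIG1 and EBP are printed because these genes belong to 1 pathway but changed in opposite directions, and that of RRM1 because it had the smallest adjusted p. Motifs were sought on both strands in 300-base RefSeq windows of GRCm38.p6, which 74 of the 97 genes examined by name had: the sterol element TCACNCCAC, the E-box CACGTG and the CCAAT box CCAAT, none of which overlap here. These were found in 1.24%, 7.15% and 37.4% of all 32851 promoters, and in 1, 2 and 10 of the 11 cholesterol genes with a window. Capitals mark matches, 5′ to 3′ on the gene's strand, for INSIG1 (plus strand, chr5:28071162-28071461), EBP (minus strand, chrX:8193463-8193762) and RRM1 (plus strand, chr7:102441445-102441744).
INSIG1: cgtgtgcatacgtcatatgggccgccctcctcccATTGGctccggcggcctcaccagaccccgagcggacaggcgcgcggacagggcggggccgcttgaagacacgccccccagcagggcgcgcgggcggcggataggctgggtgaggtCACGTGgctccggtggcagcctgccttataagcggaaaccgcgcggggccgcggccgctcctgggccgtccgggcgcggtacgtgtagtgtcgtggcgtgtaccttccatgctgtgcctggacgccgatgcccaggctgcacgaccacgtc
EBP: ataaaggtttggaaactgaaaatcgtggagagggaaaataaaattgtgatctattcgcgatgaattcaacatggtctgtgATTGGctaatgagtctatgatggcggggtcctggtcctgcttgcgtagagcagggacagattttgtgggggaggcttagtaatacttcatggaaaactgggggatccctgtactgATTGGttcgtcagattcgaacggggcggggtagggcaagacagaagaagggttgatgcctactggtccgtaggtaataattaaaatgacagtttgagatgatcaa
RRM1: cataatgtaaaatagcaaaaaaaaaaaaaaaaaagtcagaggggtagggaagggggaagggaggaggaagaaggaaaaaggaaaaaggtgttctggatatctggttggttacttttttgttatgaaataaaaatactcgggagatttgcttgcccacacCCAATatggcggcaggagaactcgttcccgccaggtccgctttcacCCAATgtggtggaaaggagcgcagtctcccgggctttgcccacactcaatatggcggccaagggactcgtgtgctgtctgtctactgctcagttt
INSIG1 held 1 E-box and 1 CCAAT box, and EBP and RRM1 each held 2 CCAAT boxes, while TCACNCCAC was in none of these 3 windows. A match describes the letters only.

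RRM1 was the most firmly raised gene of cell division. It was at 74.2 to 168 CPM in S2-32 (median 98.1) and at 25.7 to 58.8 CPM in Control-32 (median 34.4), a log2 fold change of 1.61 ± 0.25 with no overlap between the groups, and the adjusted p was at most 0.00100 in every refit with a library left out. SMC3, part of the cohesin ring that holds sister chromatids together, had medians of 51.7 and 16.3 CPM (log2 fold change 1.42 ± 0.35, adjusted p = 0.00890). CDKN1B, an inhibitor of cyclin-dependent kinases, was lower, at 117 to 184 CPM in S2-32 (median 134) and 176 to 555 CPM in Control-32 (median 319; log2 fold change -1.23 ± 0.33, adjusted p = 0.0115). Of 43 cell cycle genes, 3 were higher and 2 lower, against 3.45% and 7.21% of all genes, with SMC4, a condensin subunit, higher and RB1, which restrains entry into DNA synthesis, lower, the median being 0.46. The calls of SMC4 and RB1 were lost in 3 and 8 of 12 refits, with an adjusted p of up to 0.0651 and 0.0798, each without Control-32 mouse 75.

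The P53 pathway, which links DNA damage to arrest and cell death, held 2 higher and 4 lower genes of 41 (median 0.33), against 3.45% and 7.21% of all genes. TRP53 itself was at 171 to 306 CPM in S2-32 (median 233) and 223 to 732 CPM in Control-32 (median 557; log2 fold change -1.17 ± 0.36, adjusted p = 0.0267), a call lost without S2-32 mouse 38 or Control-32 mouse 75, 76 or 78 (adjusted p up to 0.0722). MDM2, which degrades P53, was lower too, and FAS, a death receptor, was higher, but these calls held in only 4 and 5 of 12 refits, with adjusted p values up to 0.108 and 0.146.

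Of 28 genes of insulin, AMPK and mTOR signalling, 2 were higher and 2 lower, against 3.45% and 7.21% of all genes, with a median of 0.07. IRS1, the adaptor that passes the insulin receptor's signal on, was at 31.1 to 81.3 CPM in S2-32 (median 37.2) and at 56.03 to 271 CPM in Control-32 (median 154; log2 fold change -1.69 ± 0.34, adjusted p = 0.00214). Only S2-32 mice 40 and 41 rose to the level of the lowest control, mouse 73. GRB14, an adaptor that inhibits the insulin receptor, and PRKAB1, a regulatory subunit of the energy sensor AMPK, were higher, with log2 fold changes of 1.30 ± 0.43 and 0.93 ± 0.28. EIF4EBP1, a brake on protein synthesis that mTOR releases, was lower (log2 fold change -1.27 ± 0.41). These last 3 calls were lost in 8, 3 and 8 of 12 refits with a library left out, with an adjusted p of up to 0.116, 0.0818 and 0.0941.

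Among genes of innate immune signalling, most were not called. TRAF6, a ubiquitin ligase that relays Toll-like and interleukin receptor signals to NF-kappaB, was at 21.0 to 36.8 CPM in S2-32 (median 27.9) and at 42.4 to 163 CPM in Control-32 (median 92.3), with no overlap and a log2 fold change of -1.75 ± 0.40 (adjusted p = 0.00448). NFKB2, an NF-kappaB precursor, also showed no overlap (17.7 to 42.01 CPM against 50.2 to 143 CPM; log2 fold change -1.67 ± 0.50, adjusted p = 0.0233), and its call was lost without Control-32 mouse 75 or 78 (adjusted p up to 0.0563). BIRC3, an inhibitor of apoptosis that NF-kappaB induces, was lower (log2 fold change -1.64 ± 0.48), a call lost without Control-32 mouse 75 (adjusted p = 0.0775). The kinase subunits that activate NF-kappaB differed, IKBKB being lower and CHUK higher, in 7 and 4 of 12 refits, with an adjusted p of up to 0.0853 without Control-32 mouse 75 and 0.112 without mouse 78. In all, 4 of 23 genes of the pathway were lower, against 7.21% of all genes, 1 was higher, against 3.45%, and 18 were not called, and the median was -0.32. Of 27 interferon and antigen presentation genes, OASL1 and CD74, the invariant chain of class II molecules, were lower, a share near the 7.21% of all genes, and 0 were higher. That list leaves out GBP10 and H2-Q6, which were also lower (log2 fold changes -4.50 and -1.57), H2-Q6 in 6 of 12 refits. OASL1 was at 5.35 to 21.0 CPM in S2-32 (median 8.09) and 6.49 to 118 CPM in Control-32 (median 64.2; log2 fold change -2.56 ± 0.70, adjusted p = 0.0132), while CD74 (log2 fold change -2.20 ± 0.69) was called in 6 of 12 refits, with an adjusted p of up to 0.0827 without Control-32 mouse 76.

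Of 18 complement genes tested, 3 were lower, 0 higher and 15 not called, against 7.21% of all genes lower and 3.45% higher. C9, which forms the pore of the membrane attack complex, was at 735 to 18205 CPM in S2-32 (median 1766) and at 2817 to 62516 CPM in Control-32 (median 39096), a log2 fold change of -2.46 ± 0.66 (adjusted p = 0.0115). Within S2-32, mice 37 and 38 were highest, at 10966 and 18205 CPM, and the other 4 mice reached 2313 CPM at most. Within Control-32, mice 73 and 74 were lowest, at 4664 and 2817 CPM, against at least 39073 CPM in the other 4 mice. VTN, a regulator of the complex, and C8B, another of its parts, were the other complement genes called, both lower (log2 fold changes -1.22 ± 0.37 and -1.71 ± 0.59), in 9 and 5 of 12 refits, with an adjusted p of up to 0.0600 and 0.115, each without S2-32 mouse 42. The median of the 18 genes was 0.22. ORM3, an orosomucoid with similar paralogs, had 2 counts over all S2-32 libraries, both in mouse 38, against 110 over Control-32, where mice 73 and 78 had none; it was the only 1 of 22 acute phase genes called (adjusted p = 0.00320).

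Among urinary protein and detoxification genes, MUP8 was lower in S2-32, with a log2 fold change of -2.90 ± 0.87 (adjusted p = 0.0230), and MUP13 likewise (-2.37 ± 0.81, adjusted p = 0.0482), and these near-identical genes are uncertain for that reason. The MUP8 call was lost without S2-32 mouse 37, 39 or 42 or Control-32 mouse 78 (adjusted p up to 0.0573), and that of MUP13 in 8 of 12 refits (adjusted p up to 0.0964 without S2-32 mouse 42). UGDH, which makes the sugar acid used to conjugate drugs and bilirubin, was at 1912 to 8875 CPM in S2-32 (median 2728) and 4452 to 36906 CPM in Control-32 (median 17551; log2 fold change -2.36 ± 0.70, adjusted p = 0.0215), a call lost without S2-32 mouse 37 or Control-32 mouse 76 or 78 (adjusted p up to 0.0558). NR1I2, the pregnane X receptor that drives drug metabolism genes, was higher in every treated mouse than in any control, at 380 to 702 CPM (median 552) against 103 to 355 CPM (median 142; log2 fold change 1.47 ± 0.31, adjusted p = 0.00320). It was the only call in a list of 43 cytochrome P450 and other drug-metabolising genes, against 3.45% of all genes higher and 7.21% lower. The list's median was 0.43, but it leaves out CYP46A1, a cytochrome P450 described below, and the conjugating enzyme UGT1A7C. UGT1A7C was higher (log2 fold change 1.74, adjusted p = 0.0432) in 5 of 12 refits.

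Among targets of the fatty acid receptor PPARA, 2 paralogs chosen after their values were seen split both groups. CYP4A14, a fatty acid hydroxylase, was at 20.2 and 2.33 CPM in S2-32 mice 37 and 38 and at 4581 to 10596 CPM in the other 4. In Control-32 it was at 3023 and 3736 CPM in mice 73 and 74 and at 12.0 CPM or less in the rest, so that it was not called (adjusted p = 0.281). CYP4A10, its close paralog, split in the same mice, with S2-32 mice 37 and 38 at 18.5 and 2.72 CPM and Control-32 mice 73 and 74 at 669 and 1201 CPM (adjusted p = 0.320). C9 was high in the mice in which CYP4A14 was low, in both groups. These splits follow no label, and what set them was not tested. Of 27 PPARA targets, 2 were higher and 0 lower, against 3.45% and 7.21% of all genes, with a median of 0.61: PLIN2, the coat protein of lipid droplets (medians 135 and 57.1 CPM, log2 fold change 1.74 ± 0.56, adjusted p = 0.0363), and ECI1, an enzyme of fatty acid oxidation (medians 1207 and 253 CPM, log2 fold change 1.47 ± 0.45, adjusted p = 0.0261). ECI1 split in the same mice as CYP4A14. In S2-32 it was at 385 and 409 CPM in mice 37 and 38 and at 1205 to 1698 CPM in the other 4. In Control-32 it was at 653 and 1018 CPM in mice 73 and 74 and at 60.3 to 284 CPM in the rest. PLIN2 was highest in S2-32 mouse 41, at 768 CPM, and without that mouse its log2 fold change was 0.74 and its adjusted p 0.319. It was also lost without Control-32 mouse 75, 77 or 78 (adjusted p up to 0.0946), and ECI1 without S2-32 mouse 42 or Control-32 mouse 75, 76 or 78 (adjusted p up to 0.0736).

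**Figure D4:**
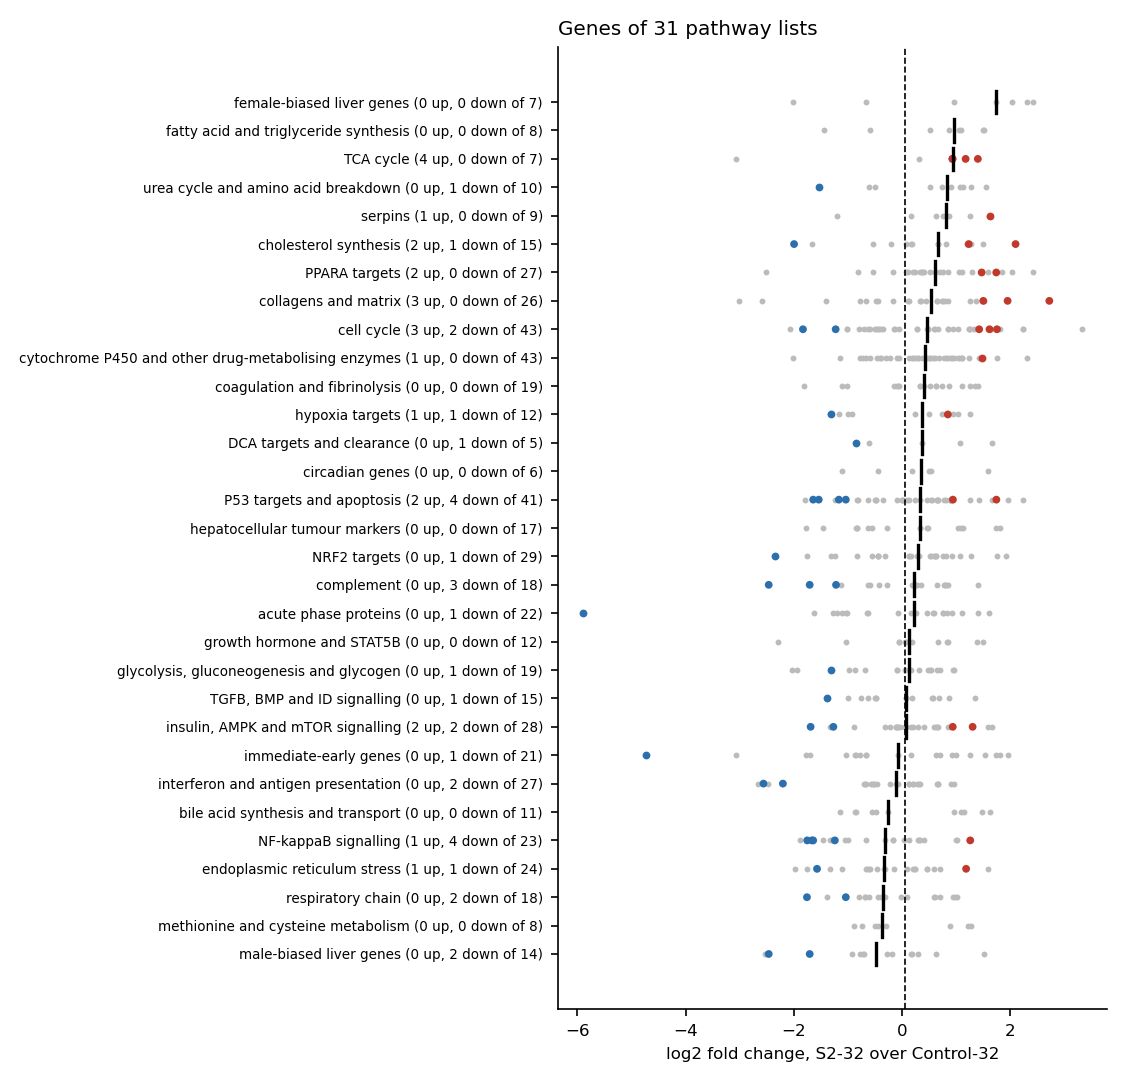
Log2 fold change of S2-32 over Control-32 for each tested gene (points) of 31 pathway lists, with DEGs in red (higher) and blue (lower), a black bar at each list's median and a dashed line at the median of all genes, 0.05. The TCA cycle has 4 of 7 genes higher and a median of 0.93, and NF-kappaB signalling has 4 of 23 lower and a median of -0.32.

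Other large changes without overlap lay outside the pathways described so far. Among the falls, FOSL1, an AP-1 transcription factor subunit, was at 0 to 7.22 CPM in S2-32 (median 0.487) and at 8.22 to 104 CPM in Control-32 (median 32.7; log2 fold change -4.73 ± 1.24, adjusted p = 0.0108). AXIN1, the scaffold of the complex that degrades beta-catenin, was at 108 to 137 CPM in S2-32 (median 117) and 195 to 1318 CPM in Control-32 (median 742; log2 fold change -2.63 ± 0.51, adjusted p = 0.00122). HSPB1, a small heat shock protein, fell from a median of 334 CPM to 45.7 CPM (log2 fold change -2.24 ± 0.455, adjusted p = 0.00222), and CRIM1, a membrane protein that binds bone morphogenetic proteins, from 80.4 to 19.1 CPM (log2 fold change -2.28 ± 0.41, adjusted p = 0.000610). For AXIN1 the treated mice spanned a narrow range and the controls a wide one. CYP46A1, a brain-type cholesterol hydroxylase, CCDC85B and the translation factor EIF4B also fell without overlap (log2 fold changes -3.15, -2.89 and -2.03), as did PTGER4, a prostaglandin receptor (-2.70), whose call held in 3 of 12 refits (adjusted p up to 0.148 without Control-32 mouse 75). AXIN1 and FOSL1 were near their S2-32 levels in S1-32 also, at 121 to 173 CPM and 0.691 to 3.82 CPM. There CCDC85B was at 95.4 to 233 CPM (99.0 to 120 CPM in S2-32) and EIF4B at 856 to 1573 CPM (1003 to 1303 CPM). CYP46A1 and CRIM1 were above every S2-32 mouse in S1-32, at 73.3 to 135 CPM and 27.3 to 57.4 CPM. HSPB1 was at 131 to 235 CPM and PTGER4 at 3.92 to 20.9 CPM in S1-32.

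Among the rises, TUBA4A, an alpha-tubulin, was at 829 to 1350 CPM in S2-32 (median 888) and at 31.2 to 697 CPM in Control-32 (median 185; log2 fold change 1.98 ± 0.48, adjusted p = 0.00839). PSMD4, the proteasome subunit that binds ubiquitin, had medians of 107 and 33.6 CPM (log2 fold change 1.73 ± 0.41, adjusted p = 0.00616), and SERPINF1, a secreted serpin that limits vessel growth, 330 and 101 CPM (1.63 ± 0.45, adjusted p = 0.0140). SLC11A2, an iron importer, had medians of 186 and 37.7 CPM, was at 0 in Control-32 mouse 73, the shallowest library, and was called in 8 of 12 refits (log2 fold change 1.64 ± 0.52, adjusted p up to 0.0792 without Control-32 mouse 78).

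S2-32 was next compared with S1-32, mice of the same age whose DCA had been stopped after 10 weeks; no water controls enter this contrast. There were 47 genes higher in S2-32 (2.13%) and 31 lower (1.41%), and the median log2 difference over all genes was 0.01. Of 27 PPARA targets, 10 were higher in S2-32 than in S1-32 and 0 lower, with a median of 1.03. ACAA1B, a peroxisomal thiolase with a near-identical paralog, was at 59.2 to 11852 CPM in S2-32 (median 1804) and at 31.8 to 192 CPM in S1-32 (median 87.2), a log2 difference of 4.90 ± 0.91 (adjusted p = 0.00111). CYP4A14 was at 0 to 31.3 CPM in S1-32, so it was below the 4 high mice of S2-32 and near mice 37 and 38 (adjusted p = 0.00421). FABP1 had medians of 36252 and 13590 CPM (log2 difference 1.37 ± 0.41, adjusted p = 0.0482), and HSD17B11, a lipid droplet enzyme, 2931.5 and 645 CPM (2.41 ± 0.46, adjusted p = 0.00111). Control-32 was not low for these genes, at 417 to 5880 CPM for ACAA1B, 13572 to 45762 CPM for FABP1 and 1724 to 6157 CPM for HSD17B11, and none of the 3 was called between S2-32 and Control-32 (adjusted p = 0.522, 0.381 and 0.639). For ACAA1B and HSD17B11 every S1-32 mouse lay below every control. Of 18 respiratory chain genes, 4 (NDUFA5, UQCRFS1, CYCS and ATP5O) were higher in S2-32 than in S1-32 and 0 lower, with a median of 0.56. These stand against 2.13% and 1.41% of all genes. PDHX was also called higher than in S1-32, where it was at 79.8 to 105 CPM and CYCS at 78.1 to 130 CPM. Against Control-32 both PDHX and CYCS were lower, CYCS in 9 of 12 refits and PDHX in 3.

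Of 22 genes of acute phase proteins, which the liver secretes in inflammation, 5 were lower in S2-32 than in S1-32, against 1.41% of all genes, 0 were higher, against 2.13%, and 17 were not called, with a median of -1.02. SAA1, a serum amyloid A gene with a near-identical paralog, was at 148 to 1830 CPM in S2-32 (median 659), 1729 to 319258 CPM in S1-32 (median 97290) and 81.1 to 6935 CPM in Control-32 (median 242). LCN2, an iron-binding defense protein, was at 4.34 to 21.4 CPM in S2-32, 83.9 to 12857 CPM in S1-32 and 0.936 to 84.6 CPM in Control-32. HP, haptoglobin, was at 747 to 1496 CPM in S2-32 (median 1236), 1590 to 8679 CPM in S1-32 (median 4313) and 606 to 2115 CPM in Control-32 (median 1247). S1-32 had the highest median of each gene, but S1-32 mouse 19 lay below Control-32 mouse 77 for all 3 and below S2-32 mouse 40 for SAA1, so the groups overlapped. None of SAA1, LCN2 and HP was called between S2-32 and Control-32 (adjusted p = 0.743, 0.749 and 0.908). For the difference from S1-32, the adjusted p values of these 3 genes were 0.00421, 0.00111 and 0.00125.

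RRM1 was also higher in S2-32 than in S1-32, at a median of 98.1 against 44.7 CPM (log2 difference 1.33 ± 0.25, adjusted p = 0.00111), as was CCND1, a cyclin of early cell cycle, at 95.2 against 13.1 CPM (2.92 ± 0.58, adjusted p = 0.00125; not called against Control-32, adjusted p = 0.199), and 3 of 43 cell cycle genes were higher and 0 lower, against 2.13% and 1.41% of all genes, with a median of 1.04. COL1A1, at a median of 79.8 CPM in S1-32, was higher with continued DCA (log2 difference 2.03 ± 0.57, adjusted p = 0.0338). Depth differed with the groups, at 1484484 to 3049702 counts in S2-32 and 2979117 to 3914572 in S1-32, and 15 genes were called once depth was put in the model, against 78 without it. Depth and exposure cannot be told apart here. With all 78 libraries 12 genes were called and RRM1 was lost, and with depth in the model HSD17B11 and CYP4A10 were lost. With only these 2 groups fitted there were 446 calls, and with a library left out 27 to 74, being 51 or fewer when any 1 of the S1-32 mice or of S2-32 mice 39 to 42 was left out.

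**Figure D5:**
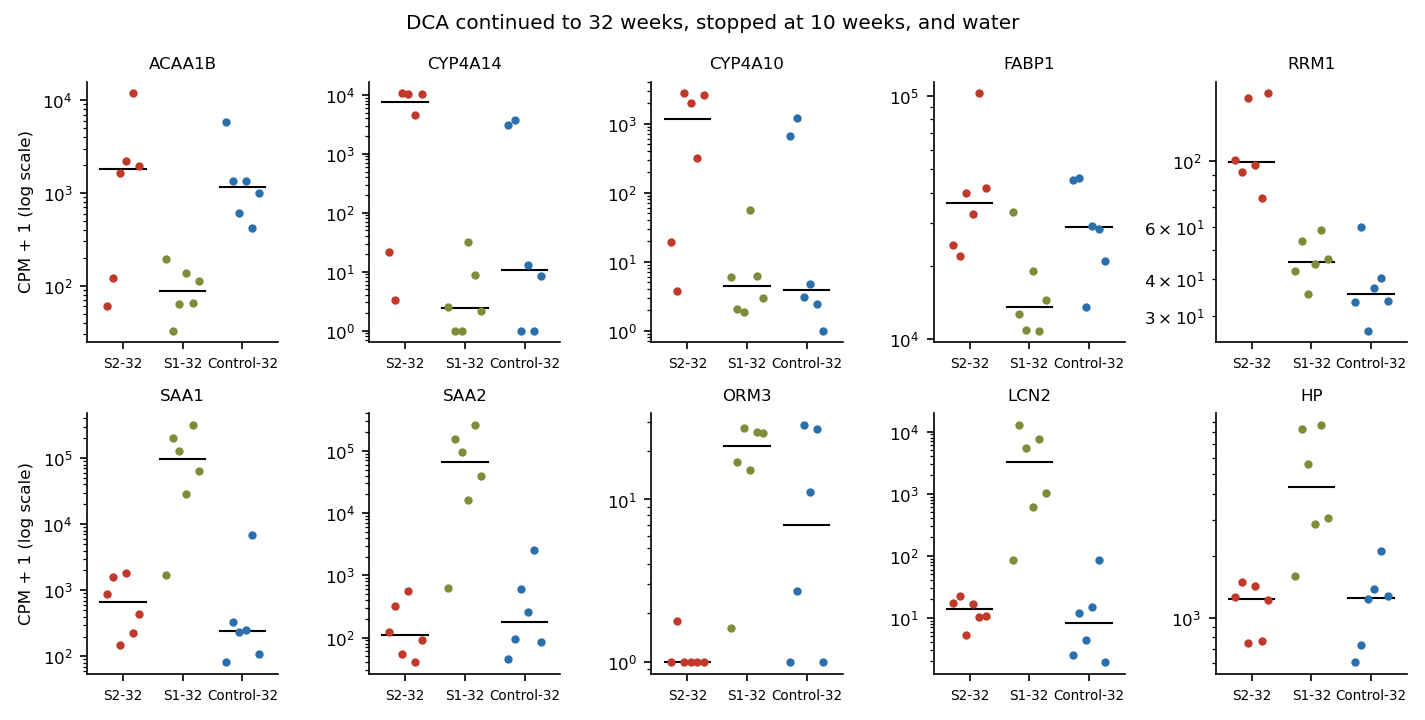
CPM + 1 on a log scale for 10 genes in each mouse of S2-32 (red, DCA for 32 weeks), S1-32 (green, DCA for 10 weeks, then water) and Control-32 (blue), with a line at the group median. SAA1, SAA2, LCN2 and HP are high in S1-32, and CYP4A14 is at least 4581 CPM in 4 S2-32 mice and 31.3 CPM or less in all S1-32 mice.

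The change at 32 weeks was set against the change after 10 weeks of DCA, each relative to its own controls, by a test of the difference. It differed for 41 genes (1.86%), with 29 more positive and 12 more negative at 32 weeks. COL1A1 differed by 4.76 ± 0.85 on the log2 scale (adjusted p = 0.000752), being at 19.3 to 60.7 CPM in S1-10 (median 42.5) and 101 to 224 CPM in Control-10 (median 197), the reverse of its order at 32 weeks. COL3A1 and COL4A2 differed in the same direction (3.45 ± 0.83 and 2.15 ± 0.56), and so did IDH3A (1.74 ± 0.43), with adjusted p values from 0.0183 to 0.0310. RRM1 (2.05 ± 0.37) had medians of 50.5 CPM in S1-10 and 61.6 CPM in Control-10, and NR1I2 (2.09 ± 0.45) 255 and 320 CPM. The water controls of the 2 ages also differed in level, with medians in Control-10 and Control-32 of 61.6 and 34.4 CPM for RRM1 and of 197 and 41.6 CPM for COL1A1; that difference was not tested.

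C9 moved the other way, differing by -4.44 ± 1.01 (adjusted p = 0.0118), at medians of 9711 CPM in S1-10 and 2686.5 CPM in Control-10. SERPINE2, a protease inhibitor, differed by -4.45 ± 0.98 (adjusted p = 0.0113), at medians of 86.7 CPM in S1-10 and 6.25 CPM in Control-10, and was not called at 32 weeks. ENPP6 also differed, but it had 0 counts in Control-10 against 130 in S1-10, 35 in S2-32 and 87 in Control-32, so no size is given for its difference. The number of genes that differed was 21 to 80 with a library left out, being 80 without Control-32 mouse 74 and 27 or fewer without S2-32 mice 39 to 42, S1-10 mouse 16 or 18, Control-10 mouse 68 or 71, or Control-32 mouse 78, and NR1I2 was lost without Control-10 mouse 68 (adjusted p = 0.0643), the library that stands apart from the other 3 controls of that age. With all 78 libraries only 1 gene differed, and the calls of COL1A1 (adjusted p = 0.0533), RRM1 (0.167), NR1I2 (0.283), SERPINE2 (0.213) and ENPP6 (0.395) were lost, while C9 was lost when the other groups were left out of the model (0.0546).

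Against 57 weeks of continuous DCA, the change at 32 weeks differed for 2 genes (0.0907%), ORM3 and SULT3A1, both lower at 32 weeks. ORM3 had 589 counts in S3-57 and 309 in Control-57. SULT3A1, a sulfotransferase, had 19 counts in S2-32 and 44 in Control-32, and was at 0 to 1002 CPM in S3-57 (median 8.26), where mouse 51 decided the result (adjusted p = 0.402 without it). It was also lost without S2-32 mouse 38 or 39, Control-32 mouse 75 or Control-57 mouse 79 or 84 (adjusted p from 0.0513 to 0.114). COL1A1, with a difference of 3.54 ± 0.83, just missed the threshold (adjusted p = 0.0515), so whether its change at 32 and 57 weeks differed was not settled. With all 78 libraries both calls were lost. The count was 1 to 5 with most libraries left out and 15 without S2-32 mouse 41, and few calls here do not show that the changes were alike.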

How the data were processed

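Gene expression of 78 mouse livers, 1 library per mouse in 13 groups, was measured by TempO-Seq. The deposited raw table holds counts for 2755 genes, aligned by the authors with Bowtie to the probes (processing notes: mm10, Partek 10.0.22.0524). The deposited normalized tables hold a signal, the count plus 1 divided by a library factor, for the 68 libraries and 2205 genes the authors kept; they were used to choose libraries and genes. Counts of these were fitted in edgeR 4.0.16 (R 4.3.3; TMM factors, quasi-likelihood test, 13 groups, 2-sided), with Benjamini-Hochberg adjustment over all 2205 genes for every adjusted p given. SE is the log2 fold change divided by the square root of F. The code was tested on simulated data. Members and lists were chosen with earlier results of these data known. Genes were named by rule: the 8 largest rises and falls among DEGs without overlap and at least 10 CPM in 1 group, up to 3 DEGs per pathway list, all genes of DCA targets and clearance, genes the study names, up to 3 genes per direction for other contrasts, and the most abundant marker per cell type; 18 more were chosen after their values were seen. A few genes are left out of this account. Alternatives used RLE or upper-quartile factors, other gene filters, other library sets, covariates and DESeq2 1.42.0. Intervals between mice include technical spread, and each library came from fixed sections of 1 block. Python 3.11.15 and matplotlib 3.10.9 drew figures. Sequences are from RefSeq.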

Additional observations from a re-analysis of the deposited data

Results flagged for a closer look

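Each measure was examined in S2-32 and in Control-32 for a mouse far from the other 5, by the gap to its nearest neighbour over the whole range (Dixon's ratio above the 95% value). Of 198 groups examined, 20 held such a mouse, where chance alone finds about 1 in 20. S2-32 mouse 41 accounted for 11 of them. It had the highest MUP8 share of its group (17.4%, next 7.48%) and the lowest correlation with it (0.754, next 0.907). On the log2(CPM + 1) scale it was lowest for CRIM1 (2.92), INSIG1 (7.46), P4HB (7.67), VEGFA (8.79), SERPIND1 (7.93), SERPINA3N (3.60), PTPRC (2.64), ACTA1 (4.42) and IKBKB (6.14). Its exocrine pancreas markers summed to 179 CPM, against 12.1 CPM or less in the other 5 treated mice. Without mouse 41, 323 DEGs were called.

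Other treated mice far from their group were mouse 40, lowest for CYP46A1 (3.36), mouse 42, lowest for COL4A1 (3.63), and mouse 38, the only one with ORM3 counts (0.83). In Control-32, mouse 73 had the lowest log2 total count (19.46), no SLC11A2 counts (0) and the highest CTNND1 (11.34). Mouse 78 was lowest for PSMD4 (0.95), mouse 76 lowest for INSIG1 (6.91) and mouse 77 highest for SAA1 (12.76, next 8.36). Without mouse 77, 287 DEGs were called, and without mouse 73, 288.

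The change at 32 weeks differed from that at 10 weeks, by a test of the difference on the log2 scale, for COL1A1 (4.76), RRM1 (2.05), NR1I2 (2.09), SERPINE2 (-4.45), C9 (-4.44) and ENPP6. It differed from that at 57 weeks for ORM3 and SULT3A1. The fitted differences of ENPP6 (-9.40), ORM3 (-7.68) and SULT3A1 (-8.41) rest on groups with few or no counts and are no measure of size.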

How the results depend on the processing

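All 235 DEGs kept their direction under every other setting in which they were tested, except 3 that turned when Control-32 mice 75, 76 and 78 were left out. The median log2 fold change of all genes, 0.05, was moved by -0.11 under RLE scaling and by -0.21 under upper-quartile scaling, which called 281 and 310 DEGs, and of the 235 they kept 232 and 228. DESeq2, with and without independent filtering, called 393 (131 higher, 262 lower) and included 234 of the 235. With all 78 libraries 68 were called (4 higher, 64 lower), all among the 235, and with only the compared groups 38 of 167 were higher. With Control-32 mice 75, 76 and 78 left out, 0 were called, 0 higher and 0 lower, and with mice 74 and 75 left out 169 of 343 were higher. With single libraries left out the counts were 121 to 502, with 30 to 259 higher and 84 to 243 lower. The causes were not tested.

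The count of genes whose change differed from that at 10 weeks (41) was 1 with all libraries, 118 with DESeq2 under both settings, 75 with log2 total count as a covariate, 4 and 70 with the 3 and 2 controls left out, and 21 to 80 with single libraries left out. The count against 57 weeks (2) was 6 with RLE factors, 21 with only the compared groups, 0 with all libraries (edgeR), 51 and 38 with DESeq2 with and without independent filtering, 1 with log2 total count as a covariate, and 1 to 15 with single libraries left out. The count against S1-32 (78) was 50 with all 2755 genes, 446 with only the compared groups, 12 with all libraries, 147 with DESeq2 under both settings, 15 with log2 total count as a covariate, and 27 to 74 with single libraries left out. The difference in genes detected, 27.8, was reversed without S2-32 mouse 41 (-9.27) or Control-32 mouse 73 (-115.1), and ranged from -115.1 to 104.9. For single genes, 2303 of the values under an alternative kept their side of the threshold, 376 lost it and 19 gained it. No paired analysis was possible because mouse numbers differ between the groups.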

Other observations

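Several pathway lists held few or no DEGs between S2-32 and Control-32. The counts below stand against 3.45% of all genes higher and 7.21% lower. No gene was called among 8 of fatty acid and triglyceride synthesis (median log2 fold change 0.96), 11 of bile acid synthesis and transport (-0.27), 8 of methionine and cysteine metabolism (-0.37), 19 of coagulation (0.40), 12 of growth hormone signalling (0.13), 17 tumor markers (0.33), 7 female-biased liver genes (1.73) or 6 circadian genes (0.34). Of 14 male-biased liver genes C9 and C8B were lower (-0.49), a list that leaves out MUP8 and MUP13, which were lower too. Of 24 endoplasmic reticulum stress genes, P4HB, a protein disulfide isomerase, was higher and CALR, a calcium-binding chaperone, lower (-0.33). In amino acid breakdown HAAO, of tryptophan catabolism, was lower, 1 of 10 genes (0.82), and in glycolysis ALDOA, an aldolase, 1 of 19 (0.13). VEGFA was higher and ALDOA lower among 12 hypoxia targets (0.37), TGFBR2 was lower among 15 genes of TGFB signalling (0.08), FOSL1 among 21 immediate-early genes (-0.08) and UGDH among 29 NRF2 targets (0.29), and SERPINF1 was higher among 9 serpins (0.80). Of these, the calls of ALDOA, HAAO and TGFBR2 held in 4, 5 and 3 of 12 refits with a library left out, those of VEGFA and UGDH in 9, and those of CALR and P4HB in 10.

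Of the genes the study's text names, CEBPB was at 3857 to 6983 CPM in S2-32 and 5042 to 20169 CPM in Control-32 (adjusted p = 0.0666), SDPR had medians of 97.2 and 50.6 CPM (adjusted p = 0.0635), CTNND1 1757 and 1513 CPM (adjusted p = 0.660) and SERPIND1 715 and 359 CPM (adjusted p = 0.0959). CEBPB was called lower with upper-quartile factors, with only the compared groups, with DESeq2 or without Control-32 mouse 74. SDPR was called without S2-32 mouse 41 or Control-32 mouse 74, and SERPIND1 without S2-32 mouse 41. SERPINA3K, SERPINA3M and SERPINA3N, similar paralogs, were not called (adjusted p = 0.892, 0.483 and 0.205).

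No marker tested on the lists of cholangiocytes, lymphocytes, neutrophils, endothelial cells, erythroid cells, exocrine pancreas or muscle and brain was called. In that order, 4, 4, 1, 7, 4, 9 and 5 markers were tested. OLIG1, STMN3 and DRD2, brain-type genes on none of these lists, were lower (log2 fold changes -2.89, -6.28 and -4.68). Levels of these genes are not given here, so no size is read from these values. The DRD2 call held in 4 of 12 refits. The 19 exocrine pancreas markers on the panel, with the most counts from TRY4, summed to 3.52 to 179 CPM in S2-32 (median 9.06) and 1.47 to 404 CPM in Control-32 (median 68.8), with the highest values in S2-32 mouse 41 and Control-32 mouse 75. Mice 76 and 78, with 120 and 118 CPM, were next, and these 3 controls also had the highest MUP8 shares.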
